A study of Mus musculus with 6 samples.

Results

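Store-operated calcium entry is the main route by which calcium enters T cells after the T cell receptor is engaged, and the 10 genes described here encode its core and the NFAT arm downstream. They are the calcium sensors Stim1 and Stim2, the channel subunits Orai1, Orai2 and Orai3, the calcineurin subunits Ppp3ca and Ppp3r1, and the transcription factors Nfatc1, Nfatc2 and Nfatc3. A gene was taken as a member where its symbol in the count table equaled one of these names, and all 10 were found among the 15319 symbols listed. Each had a mean over the 6 libraries of at least 10 CPM (read counts scaled to a common library total after TMM normalization), and all 10 passed the low minimum of 1 count that the test required.

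Receptor signaling empties calcium from the endoplasmic reticulum, the STIM proteins sense the fall there and open ORAI channels in the plasma membrane, and the calcium that enters binds calmodulin and turns on the phosphatase calcineurin. Calcineurin removes phosphates from NFAT proteins, which then move to the nucleus, and in Tregs NFAT can act on DNA together with FOXP3. None of these steps is read directly by mRNA levels, since STIM, calcineurin and NFAT are controlled mostly at the level of the protein. Voltage-gated calcium channels, which open on depolarization in nerve, muscle and sperm cells, are a different family. They were set beside the store-operated genes because the ontology terms of the study name them, as a complex enriched among genes lower in knockout Tregs. The study took those genes from DESeq2 with limits on p and fold change, unlike the main test used here.

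Bulk RNA-Seq was performed on Tregs sorted from lung-colonizing tumors, with 3 libraries in the WT group (Foxp3 Yfp-Cre) and 3 in the cKO group (Xrcc6 fl/fl Foxp3 Yfp-Cre). The mice were on a C57BL/6J background and 8 to 10 weeks old when cells of LLC, a mouse lung carcinoma line, were given through the tail vein, and tumors were taken at 21 days. Both groups thus carried the Cre, which the Foxp3 gene drives in Foxp3-expressing cells, and the cKO group also carried the floxed Xrcc6 allele, the gene of Ku70. The labels do not tie a library to a single mouse, so p-values measure only the spread between these libraries.

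Total counts ranged from 19032620 to 23159815. WT replicate 2 stood apart, with 11513 genes above 0 counts against 14442 to 14737 in the others, so the results are given with and without it. Xrcc6 read 20.9, 63.1 and 23.8 CPM across WT replicates 1 to 3 and 3.51 to 5.24 CPM across the cKO libraries. Of 11 Treg and T cell markers, 10 were listed and each had a mean over the 6 libraries of at least 219 CPM. The summed level of each of 6 lists of other cell types overlapped between groups. An unadjusted p under 0.05 from edgeR, with higher values in cKO Tregs, was found for 2 of 6 neutrophil genes (S100a9 and Retnlg, whose groups were also apart) and 1 of 7 B cell genes (Pax5). Over all genes tested, 0.94% had such a p in the higher direction and 5.01% had all cKO libraries above all WT libraries. The 6 neutrophil genes were low, with a median of 0.641 CPM and the highest at 3.91 CPM. Groups were also apart in the higher direction for 1 of 7 platelet and erythroid genes and 1 of 9 macrophage and dendritic cell genes. All 7 platelet and erythroid genes had higher estimates in the cKO group, with and without WT replicate 2. The macrophage and dendritic cell list was the highest of the 6 lists, at 166 to 634 CPM in the WT and 209 to 825 CPM in the cKO libraries. In WT replicate 2, 24 of the 43 listed genes of these lists were at 0, including all 7 platelet and erythroid markers. In the other libraries the 6 lists together had at most 6 genes at 0, and the part of such cells in the results was not tested. In bulk samples, fewer cells of a type and less RNA per cell cannot be told apart.

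The DNA before the start sites of the sensor and channel genes is shown first, since Stim1 and Orai2, the genes of the 10 whose groups did not overlap, are among them. RefSeq windows of 250 bases before the start (GRCm38.p6) were found for 8 of the 10 genes. They were searched on both strands for GGAAA, the core letters that NFAT proteins contact, which read TTTCC on the other strand. In the sequences, 5′ to 3′ on the strand of the gene, capitals mark these letters. Where GENCODE places the gene's first base farther upstream than RefSeq does, the sequence stops before that base.
Stim1: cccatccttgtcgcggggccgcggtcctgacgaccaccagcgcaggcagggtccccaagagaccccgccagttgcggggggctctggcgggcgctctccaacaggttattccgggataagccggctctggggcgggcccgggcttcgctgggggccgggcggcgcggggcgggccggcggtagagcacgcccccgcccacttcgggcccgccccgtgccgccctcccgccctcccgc
Stim2: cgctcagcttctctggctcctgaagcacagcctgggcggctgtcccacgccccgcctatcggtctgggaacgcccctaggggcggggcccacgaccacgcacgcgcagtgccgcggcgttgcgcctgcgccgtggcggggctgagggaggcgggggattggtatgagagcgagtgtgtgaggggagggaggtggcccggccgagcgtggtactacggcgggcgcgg
Orai1: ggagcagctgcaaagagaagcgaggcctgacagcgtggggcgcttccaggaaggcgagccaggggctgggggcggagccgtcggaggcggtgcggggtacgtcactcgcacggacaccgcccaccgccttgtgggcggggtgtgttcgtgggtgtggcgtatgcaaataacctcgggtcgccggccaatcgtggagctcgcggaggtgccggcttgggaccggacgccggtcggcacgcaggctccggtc
Orai2: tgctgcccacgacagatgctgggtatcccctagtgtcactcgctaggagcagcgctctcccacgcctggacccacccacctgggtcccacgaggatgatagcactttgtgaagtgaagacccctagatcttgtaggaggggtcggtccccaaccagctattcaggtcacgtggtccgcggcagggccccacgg
Orai3: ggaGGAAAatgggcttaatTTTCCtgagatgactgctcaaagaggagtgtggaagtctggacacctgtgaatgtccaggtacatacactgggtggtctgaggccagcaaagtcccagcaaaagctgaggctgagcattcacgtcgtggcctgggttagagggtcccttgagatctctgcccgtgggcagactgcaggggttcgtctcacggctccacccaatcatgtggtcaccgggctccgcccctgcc
These are chr7:102267569-102267805 for Stim1, chr5:53998273-53998498 for Stim2, chr5:123014824-123015073 for Orai1, chr5:136170714-136170906 for Orai2, which lies on the minus strand, and chr7:127769565-127769814 for Orai3. Within the printed bases, the letters were found at 2 places for Orai3 and at 0 for the other 4 genes. The Orai2 window held 1 more match in its last bases, which are not shown. These letters are common, occurring in 55.6% of all 32851 promoter windows of that length. Neither a forkhead core (TGTTTAC) nor an AP-1 site (TGACTCA) was found in any of the 5 windows, and on both strands these occur in 3.17% and 4.46% of all windows. In windows not printed, a forkhead core was found at 1 place for Nfatc2 (chr2:168601658-168601907) and 1 for Nfatc3 (chr8:106058568-106058817), and at 0 for Ppp3r1. The NFAT core letters were found at 3 places in that Nfatc2 window, 1 in that Nfatc3 window and 0 for Ppp3r1. Another Nfatc2 window (chr2:168590366-168590615) held them at 1 place and another Nfatc3 window (chr8:106059340-106059589) at 0. Neither of these other windows held a forkhead core. The 5 sequences differed in base composition. GC content was 78.4% for Stim1, 74.8% for Stim2, 70.8% for Orai1, 63.6% for Orai2 and 57.2% for Orai3 over the 250 bases, against a median of 52.4% over all windows. A letter match is not a binding site, and no binding was measured here.

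None of the 10 genes was called different between the cKO and WT groups. The background was as low, since edgeR's quasi-likelihood test gave 0 of 15315 genes an adjusted p under 0.05, which is 0.0% of those tested. At an unadjusted p under 0.05, 0 of the 10 passed, where 0.94% of all genes did in the higher and 0.868% in the lower direction. DESeq2 called 2 of 15265 genes (0.0131%) and 0 of these 10. The targeted gene itself, Xrcc6, was not called in the main edgeR test. Its log2 fold change there was -3.06, with an adjusted p of 0.984 (unadjusted p = 0.000306 from edgeR), while DESeq2 gave an adjusted p of 1.22e-05. A lack of calls in the main test thus says little about smaller differences. By direction, 5 of the 10 had a higher and 5 a lower estimate in the cKO group. Both sensors and all 3 channels were on the higher side, and both calcineurin subunits and all 3 NFAT genes were on the lower side. That split did not hold without WT replicate 2, where 3 signs turned and the log2 fold change was -0.02 for Orai1, 0.04 for Ppp3ca and 0.10 for Ppp3r1. Of the 10 genes, Stim1 and Orai2 had every cKO library above every WT library, and 0 genes had the reverse. That separation held for 4.46% of the 8447 genes with a mean of at least 10 CPM in the higher direction and 3.13% in the lower.

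**Figure D1:**
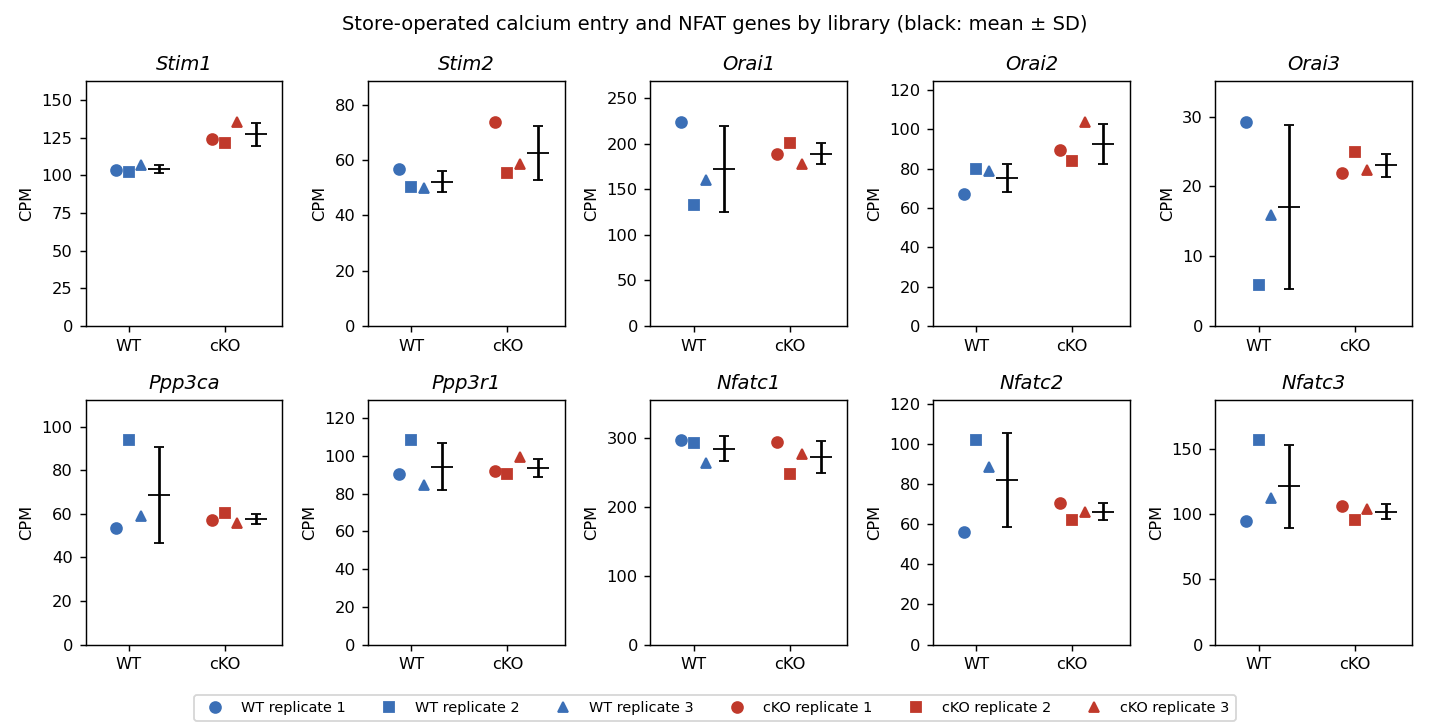
Level of each of the 10 genes in CPM (y axes, each starting at 0) in the 3 WT (blue) and 3 cKO (red) libraries, with the symbol shape giving the replicate number and black bars the mean ± SD of each group. Stim1 and Orai2 are the panels in which the groups do not overlap, and WT replicate 2 (blue square) is the highest of the 6 libraries in the panels of Ppp3ca, Ppp3r1, Nfatc2 and Nfatc3.

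Stim1 encodes the main sensor of calcium in the endoplasmic reticulum and lies on chromosome 7 from 102267806 to 102437319 (GRCm38, plus strand). Its level was 103, 102 and 107 CPM across WT replicates 1 to 3 and 124, 122 and 136 CPM across cKO replicates 1 to 3. The cKO libraries were all above the WT libraries, which lay close together. The means were 104 ± 2.44 and 127 ± 7.36 CPM (SD, n = 3 each), and p was 0.1 by an exact two-sided permutation test over libraries, as low as 3 against 3 can go. The fold change was 1.22 (95% interval 0.999 to 1.49), or 0.29 on the log2 scale (standard error 0.12), with an adjusted p of 0.984 from edgeR (unadjusted p = 0.0512). Stim1 was the gene of the 10 for which WT replicate 2 departed least from the other WT libraries. Without that library its log2 fold change was 0.27 (standard error 0.13, unadjusted p = 0.0662 from edgeR). Which side of 0.05 the unadjusted p fell on depended on the method, as it was 0.0114 from DESeq2 and 0.196 from edgeR without cKO replicate 3, and the adjusted p was at least 0.677 in each of the 14 alternatives.

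Stim2, the paralog that responds to smaller falls in store calcium, lies on chromosome 5 from 53998499 to 54121057 (plus strand). It was 56.7, 50.2 and 49.8 CPM across WT replicates 1 to 3 and 73.8, 55.4 and 58.5 CPM across cKO replicates 1 to 3. The groups overlapped at 1 point, where cKO replicate 2 fell below WT replicate 1, and cKO replicate 1 stood above the other libraries. The means were 52.2 ± 3.91 and 62.6 ± 9.85 CPM (SD, n = 3 each). The log2 fold change was 0.26 (95% interval -0.12 to 0.64, unadjusted p = 0.147 from edgeR), 0.23 without WT replicate 2 and 0.125 without cKO replicate 1.

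Orai1, the pore-forming subunit that carries most store-operated current in T cells, lies on chromosome 5 from 123015074 to 123030456 (plus strand). It measured 224, 133 and 160 CPM across WT replicates 1 to 3 and 189, 201 and 177 CPM across cKO replicates 1 to 3. The cKO values lay inside the WT range, whose ends were WT replicates 1 and 2. The means were 172 ± 46.9 and 189 ± 11.7 CPM (SD, n = 3 each), and the log2 fold change was 0.13 (95% interval -0.35 to 0.62, unadjusted p = 0.536 from edgeR). The sign of this estimate rested on WT replicate 2, without which it was -0.02, and its size also on WT replicate 1, without which it was 0.37 (unadjusted p = 0.896 and 0.0504 from edgeR). Its exons overlap Gm2479 on the other strand, and whether strand was used in counting is not given in the sources used here.

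Orai2, a subunit that can join ORAI1 in mixed channels, lies on chromosome 5 from 136147459 to 136170713 (minus strand). Its values were 67.3, 79.8 and 78.6 CPM across WT replicates 1 to 3 and 89.5, 84.0 and 104 CPM across cKO replicates 1 to 3. All cKO libraries were above all WT libraries (p = 0.1 by an exact two-sided permutation test over libraries). The gap between the groups was narrow, from 79.8 to 84.0 CPM. The means were 75.2 ± 6.91 and 92.4 ± 10.2 CPM (SD, n = 3 each), a fold change of 1.23 (95% interval 0.969 to 1.56), or 0.30 on the log2 scale (standard error 0.15, unadjusted p = 0.0795 from edgeR). Without WT replicate 2 it was 0.34 (95% interval 0.01 to 0.68), with an adjusted p of 0.997 from edgeR (unadjusted p = 0.0470). Across the 14 alternatives it stayed between 0.21 and 0.36.

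Orai3, the remaining channel subunit, lies on chromosome 7 from 127769815 to 127775150 (plus strand) and had the fewest counts of the 10 genes, down to 126 in WT replicate 2. It was 29.3, 5.92 and 15.9 CPM across WT replicates 1 to 3 and 21.9, 24.9 and 22.3 CPM across cKO replicates 1 to 3. The WT libraries were spread on both sides of the cKO libraries, which agreed closely. The means were 17.04 ± 11.7 and 23.04 ± 1.61 CPM (SD, n = 3 each). Its log2 fold change of 0.43 had the widest interval of the 10 genes, -0.74 to 1.61 (unadjusted p = 0.415 from edgeR), which reached past a 2-fold higher level. Leaving out WT replicate 2 gave 0.03 and leaving out WT replicate 1 gave 1.08 (unadjusted p = 0.914 and 0.0505 from edgeR).

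Ppp3ca encodes a catalytic subunit of calcineurin and lies on chromosome 3 from 136670124 to 136937727 (plus strand). It was 53.3, 93.7 and 58.7 CPM across WT replicates 1 to 3 and 57.3, 60.2 and 55.6 CPM across cKO replicates 1 to 3. WT replicate 2 was far above the other 5 libraries, which lay within 53.3 to 60.2 CPM. The means were 68.6 ± 21.9 and 57.7 ± 2.32 CPM (SD, n = 3 each), and the log2 fold change was -0.25 (95% interval -0.77 to 0.28, unadjusted p = 0.304 from edgeR). Without WT replicate 2 it was 0.04 (95% interval -0.24 to 0.33).

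Ppp3r1, the calcium-binding regulatory subunit, lies on chromosome 11 from 17159263 to 17200375 (plus strand), where its exons overlap Wdr92 on the same strand. Its level was 90.1, 108 and 84.4 CPM across WT replicates 1 to 3 and 91.8, 90.4 and 99.2 CPM across cKO replicates 1 to 3. The cKO libraries lay within the WT range, again with WT replicate 2 at the top. The means were 94.2 ± 12.4 and 93.8 ± 4.76 CPM (SD, n = 3 each), and the log2 fold change was -0.01 (95% interval -0.34 to 0.33, unadjusted p = 0.963 from edgeR). Its sign turned in 7 of the 14 alternatives, in which it reached at most 0.12.

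Nfatc1, the NFAT gene that is itself induced by NFAT in activated T cells, lies on chromosome 18 from 80606205 to 80713071 (minus strand). It was 296, 293 and 264 CPM across WT replicates 1 to 3 and 294, 248 and 276 CPM across cKO replicates 1 to 3. The 2 groups covered nearly the same range. The means were 284 ± 17.7 and 272 ± 23.3 CPM (SD, n = 3 each), and the log2 fold change was -0.06 (95% interval -0.40 to 0.28, unadjusted p = 0.686 from edgeR). WT replicate 2 had little part in this value, which was -0.04 without it.

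Nfatc2, the NFAT gene present in resting T cells, lies on chromosome 2 from 168476410 to 168601657 (minus strand). Its values were 56.1, 102 and 88.7 CPM across WT replicates 1 to 3 and 70.6, 62.2 and 66.2 CPM across cKO replicates 1 to 3. In WT replicates 2 and 3 it was above all cKO libraries, and in WT replicate 1 below them. The means were 82.3 ± 23.6 and 66.3 ± 4.23 CPM (SD, n = 3 each), and the log2 fold change was -0.31 (95% interval -0.83 to 0.21, unadjusted p = 0.206 from edgeR). Leaving out WT replicate 2 gave -0.13, and leaving out WT replicate 1 gave -0.52, where the unadjusted p was 0.00934 and the adjusted p 0.677 from edgeR.

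Nfatc3, another NFAT factor of T cells, lies on chromosome 8 from 106058840 to 106130537 (plus strand), with exons that overlap Esrp2 on the other strand. It was the one gene of the 10 whose deposited counts were not all whole numbers. It was 94.7, 156 and 112 CPM across WT replicates 1 to 3 and 106, 95.1 and 104 CPM across cKO replicates 1 to 3. As for Ppp3ca, WT replicate 2 stood well above the other 5 libraries. The means were 121 ± 31.7 and 102 ± 5.94 CPM (SD, n = 3 each), and the log2 fold change was -0.25 (95% interval -0.72 to 0.22, unadjusted p = 0.249 from edgeR) and -0.02 without WT replicate 2.

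**Figure D2:**
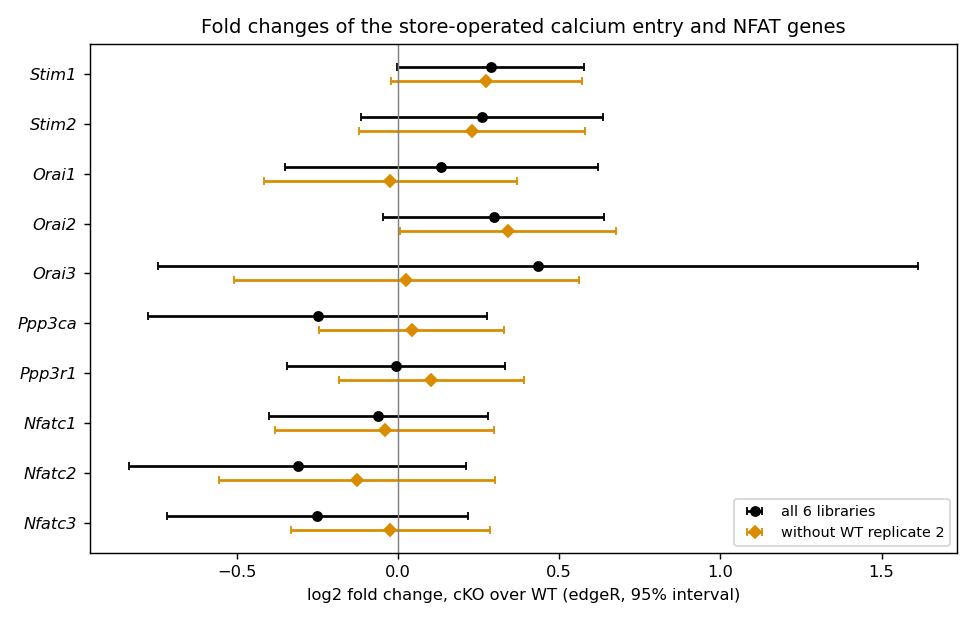
Log2 fold change of cKO over WT (x axis) with its 95% interval from edgeR for each of the 10 genes (y axis), over all 6 libraries (black) and without WT replicate 2 (orange). All 6-library intervals reach 0 or cross it, and without WT replicate 2 the interval of Orai2, 0.01 to 0.68, lies above 0.

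The intervals set how large a difference these libraries could have hidden. In 9 of the 10 genes, all but Orai3, the 95% interval of the log2 fold change lay within -1 to 1, against 73.5% of the 8447 genes with a mean of at least 10 CPM. Without WT replicate 2 it did so in 10 of 10, where it did in 8164 of these 8447 genes. Leaving out that library took the median width of the interval from 0.844 to 0.675 on the log2 scale. Over the 8447 genes the median width went from 1.07 to 0.722. In that fit 3 of the 10 genes, Stim1, Orai2 and Ppp3r1, had the cKO libraries above the 2 remaining WT libraries, where 9.59% of all genes at that level did, and 0 had them below, where 5.56% did. The unadjusted p was under 0.05 in 1 of the 10, Orai2, against 1.52% of all genes in the higher and 1.5% in the lower direction, and 0 of the 10 passed adjustment, where 1 gene did, Xrcc6 (0.00654%). The median log2 fold change of the 10 was 0.06, beside 0.04 over all genes tested, and 0.03 beside -0.01 without WT replicate 2. The 3 turned signs gave 6 higher and 4 lower estimates in place of 5 and 5. The summed level of the 10 genes was 1071, 1124 and 1019 CPM in the WT and 1119, 1042 and 1098 CPM in the cKO libraries, so that the groups overlapped.

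To compare levels between genes, CPM was divided by the exon length of each gene in GENCODE vM21, which understates genes with long exons that these cells may not use. In CPM per kb, Orai1 was the highest, at 75.1 ± 20.5 in the WT and 82.5 ± 5.10 in the cKO group (SD, n = 3 each). Nfatc1 came next, at 38.1 ± 2.37 and 36.5 ± 3.12, and then Ppp3r1, at 29.2 ± 3.85 and 29.1 ± 1.47. Between these 3 genes the group means differed by more than their SDs. The other 7 genes were lower. Orai2 was at 12.4 ± 1.14 in the WT group, and Nfatc3, Stim2 and Stim1 followed at 10.3 ± 2.71, 10.2 ± 0.761 and 10.1 ± 0.235 CPM per kb, which were not apart beyond their SDs. Orai3, Nfatc2 and Ppp3ca, at 7.96 ± 5.47, 7.78 ± 2.23 and 6.87 ± 2.19 CPM per kb, overlapped too. In the cKO group the order of the lower genes was Orai2, Stim1, Stim2, Orai3, Nfatc3, Nfatc2 and Ppp3ca, from 15.2 ± 1.67 down to 5.78 ± 0.233 CPM per kb.

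Within each family, the shares of the summed level per kb were alike in the 2 groups. Orai1 made up 78.5% ± 1.197 of the Orai family in the WT group and 76.0% ± 1.97 in the cKO group (SD, n = 3 each). Orai2 made up 13.7% ± 4.42 and 14.1% ± 2.05, and Orai3 7.72% ± 3.73 and 9.92% ± 0.387. The sensors were nearly even, with Stim1 at 49.7% ± 2.10 of the pair in the WT and 50.3% ± 4.25 in the cKO group. Nfatc1 made up 68.0% ± 6.04 and 70.9% ± 0.547 of the NFAT genes, Nfatc3 18.2% ± 3.11 and 16.9% ± 0.390, and Nfatc2 13.8% ± 3.25 and 12.2% ± 0.231. Orai1 and Nfatc1 led their families in all 6 libraries, while the order of Stim1 and Stim2 changed between libraries.

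**Figure D3:**
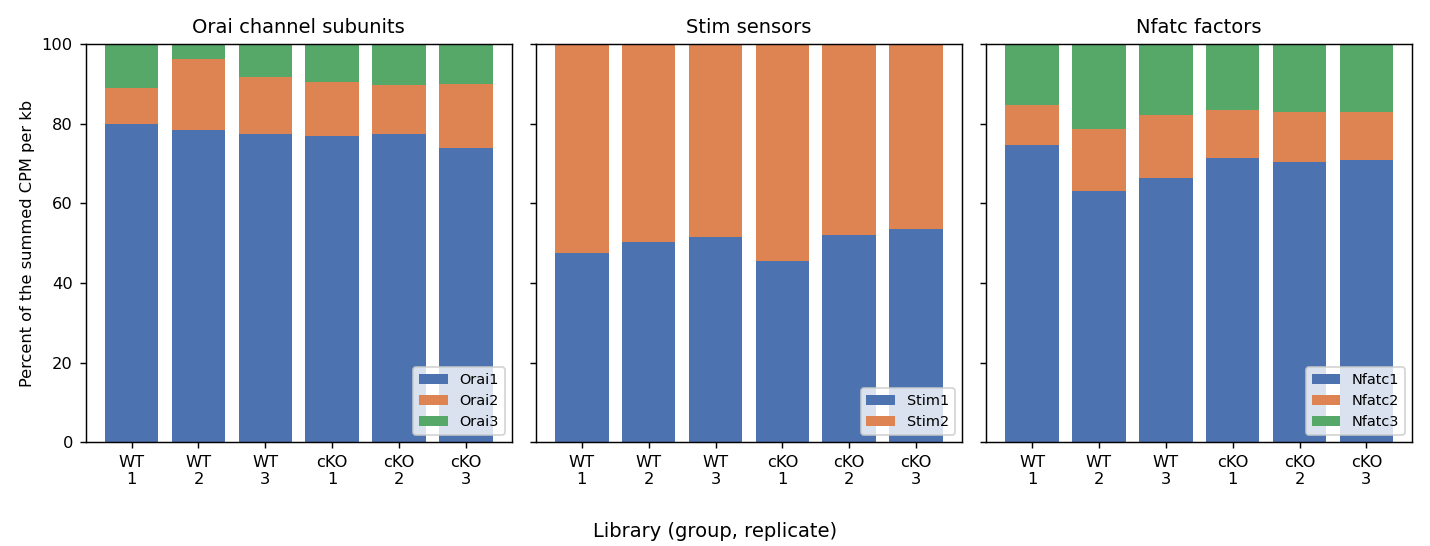
Share of each gene in the summed CPM per kb of its family (y axis, percent) in each of the 6 libraries (x axis, group and replicate) for the Orai, Stim and Nfatc families. Orai1 takes 73.8% to 79.8% and Nfatc1 63.0% to 74.8% in every library, and the share of Orai3 is smallest, 3.75%, in WT replicate 2.

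Ratios between 2 genes of the same library do not depend on how the libraries were scaled. The log2 ratio of Orai1 to Orai3 counts was 2.94, 4.48 and 3.33 across WT replicates 1 to 3 and 3.11, 3.01 and 2.99 across cKO replicates 1 to 3. WT replicate 2 was thus the high value, and the difference of cKO minus WT was -0.54. The differences were -0.20 for Ppp3ca to Ppp3r1, 0.21 for Nfatc1 to Nfatc2, 0.16 for Nfatc1 to Nfatc3, -0.13 for Orai1 to Orai2 and 0.03 for Stim1 to Stim2. By exact two-sided permutation tests, the p of these 6 ratios ranged from 0.4 to 0.9 (0.8 to 0.9 after Benjamini-Hochberg adjustment over the 6), and 3 libraries against 3 cannot give less than 0.1. Single WT libraries moved these differences. They were -0.09 for Orai1 to Orai3, -0.06 for Ppp3ca to Ppp3r1 and 0.05 for Nfatc1 to Nfatc2 without WT replicate 2, and without WT replicate 1 they were -0.87, -0.33 and 0.49. Without WT replicate 3 the last was 0.08.

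WT replicate 2 was the highest or the lowest of the 6 libraries for 7 of the 10 genes. It was the highest for Ppp3ca, Ppp3r1, Nfatc2 and Nfatc3 and the lowest for Stim1, Orai1 and Orai3. Over all 8447 genes with a mean of at least 10 CPM, it was the highest in 37.6% and the lowest in 39.6%. The size of its departure differed among the 10 genes. Relative to WT replicates 1 and 3, its log2(CPM + 0.5) was lower by 1.78 for Orai3 and by 0.51 for Orai1. It was higher by 0.74 for Ppp3ca, 0.60 for Nfatc3 and 0.53 for Nfatc2, and within -0.08 to 0.31 for the other 5. Transcript length was compared with this departure. Over 5 equal groups of genes by length, the median departure was -0.32 in the shortest, which holds Orai1, -0.01 in the next, which holds Orai3 and Ppp3r1, and 0.11 and 0.10 in the longest pair, which hold all 3 NFAT genes, both Stim genes, Orai2 and Ppp3ca. Across 8324 genes the correlation with log2 length was weak, at r = 0.16, and genes of 1 library are not independent. Shifts with length were also present between other libraries. The median of WT replicate 1 minus WT replicate 3 went from 0.19 in the shortest to -0.20 in the longest group. Which of these WT libraries shifted cannot be told. Relative to the other cKO libraries, the median went from -0.18 to 0.14 in cKO replicate 1 and from 0.19 to -0.14 in cKO replicate 2. The part of length in the members' values was not tested.

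**Figure D4:**
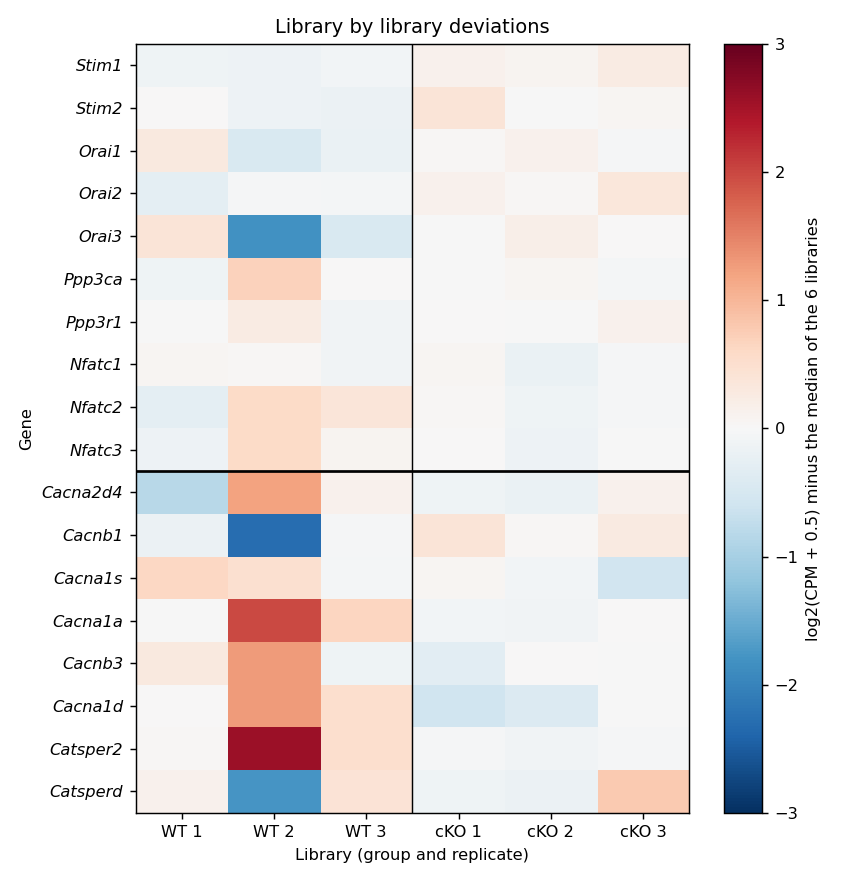
Deviation of each library's log2(CPM + 0.5) from the median of the 6 libraries (color, log2 units, blue low and red high) for the 10 store-operated entry and NFAT genes (above the line) and the 8 voltage-gated subunits with a mean of at least 1 CPM (below the line). The column of WT replicate 2 holds the strongest colors in both blocks, with Orai3 the bluest of the upper block and Catsper2 the reddest of the lower block.

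The remaining genes of the pathway were taken from 8 lists of 97 genes, of which 92 were listed. Estimates were higher in the cKO group for 51 and lower for 41, and 0 were called. At an unadjusted p under 0.05 from edgeR, 1 gene (1.09%) was lower and 0 were higher, where 0.868% and 0.94% of all genes were. The median log2 fold change was 0.03, and -0.03 without WT replicate 2, where 39 were higher and 53 lower.

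Upstream of the sensors, store release was represented by 8 phospholipase C gamma, IP3 receptor and ryanodine receptor genes, of which 2 were higher and 6 lower. Itpr2, an IP3 receptor through which stored calcium leaves, was at 194 ± 36.5 CPM for WT and 181 ± 7.77 CPM for cKO, and Plcg1, the phospholipase that makes IP3 after receptor engagement, at 94.9 ± 5.87 and 99.5 ± 13.97 CPM (SD, n = 3 each). Of 11 listed modulators of STIM and ORAI, 7 were higher and 4 lower. Saraf, which promotes the slow inactivation of store-operated entry, was at 520 ± 53.8 and 620 ± 79.2 CPM (SD, n = 3 each). Anxa6, a calcium-dependent membrane-binding protein, was at 479 ± 149 and 579 ± 62.2 CPM. In both lists the groups overlapped in every gene, where 5.01% of all genes tested were apart in the higher and 3.23% in the lower direction.

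Of 14 pumps, exchangers and uniporter subunits that clear calcium from the cytosol, 10 were higher and 4 lower (8 and 6 without WT replicate 2). Groups were again apart for 0 of the 14, beside 5.01% of all genes tested in the higher and 3.23% in the lower direction. Atp2b1, a plasma membrane calcium pump, was at 295 ± 47.0 CPM for WT and 255 ± 7.28 CPM for cKO. Atp2a3, the pump that refills the store in blood cells, was at 167 ± 15.6 and 200.2 ± 24.5 CPM (SD, n = 3 each). Of 8 listed channels that set the membrane potential or carry other cation currents, 7 were higher and 1 lower, and 3 were higher and 5 lower without WT replicate 2. Kcnn4, a potassium channel opened by calcium, was at 180.2 ± 28.9 and 188 ± 0.999 CPM, and the cation channel Trpv2 at 123 ± 22.99 and 129 ± 2.61 CPM (SD, n = 3 each).

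The other genes of calcineurin and NFAT signaling, 6 of 8 listed, had 4 higher and 2 lower estimates, and 1 higher and 5 lower without WT replicate 2. Calm2, a calmodulin gene, was at 195 ± 8.24 and 187 ± 30.4 CPM (SD, n = 3 each). Among 11 calcineurin inhibitors and binding partners, 8 were higher and 3 lower, which became 4 and 7 without WT replicate 2. The most abundant were the immunophilins, Ppia, the target of cyclosporin, at 2513 ± 872 and 2723 ± 366 CPM, and Fkbp1a, the target of tacrolimus, at 260 ± 24.3 and 249 ± 23.7 CPM (SD, n = 3 each). The 10 kinases that phosphorylate NFAT proteins and so oppose calcineurin had 4 higher and 6 lower estimates (6 and 4 without WT replicate 2), and WT replicate 2 was the highest library in 7 of the 10. Csnk1a1 was at 298 ± 12.2 and 300.3 ± 4.08 CPM and Csnk1d at 187 ± 31.5 and 179.5 ± 14.4 CPM. Groups were apart for 1 kinase in the higher and 1 in the lower direction, where 4.46% and 3.13% of genes with a mean of at least 10 CPM were, and both are named after their values were seen. Mapk14 was at 85.4 to 97.0 CPM in the WT and 99.2 to 110 CPM in the cKO libraries, and Mapk9 at 43.2 to 46.6 and 39.2 to 42.7 CPM.

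Of 25 genes that NFAT is known to induce in T cells, 10 had higher and 15 had lower estimates in cKO Tregs. Their median log2 fold change was -0.09, and -0.20 without WT replicate 2. Egr3, a transcription factor that restrains T cell activation, was the one with an unadjusted p under 0.05. It was 8.84, 19.9 and 9.80 CPM across WT replicates 1 to 3 and 7.47, 6.05 and 5.20 CPM across cKO replicates 1 to 3. All cKO libraries were below all WT libraries, and WT replicate 2 was the highest. On the log2 scale the cKO group was at -1.04 relative to WT (standard error 0.42), with an adjusted p of 0.984 from edgeR (unadjusted p = 0.0415). Without WT replicate 2 the value was -0.58 (standard error 0.23, unadjusted p = 0.0306 from edgeR). The unadjusted p from edgeR was 0.0651, 0.108 and 0.130 without cKO replicates 1, 2 and 3 in turn, and 0.0973 with the replicate block. In the other alternatives it was under 0.05. Groups were also apart for Ctla4, the inhibitory receptor of Tregs, at 1302 ± 81.2 and 1076 ± 184 CPM (SD, n = 3 each), and for Il4, named after its values were seen, at 1.79 ± 0.880 and 0.783 ± 0.140 CPM. Nr4a1, induced soon after receptor engagement, was at 1515 ± 710 CPM for WT and 1207 ± 243 CPM for cKO. The 3 genes with groups apart are of 25, where 3.23% of all genes tested were apart in the lower direction. The list holds Treg genes such as Foxp3, Il2ra and Ctla4, which other factors also induce. Without WT replicate 2, 3 of the 92 genes of the 8 lists had an unadjusted p under 0.05 from edgeR, all lower. Over all genes in that fit, 1.5% passed in the lower and 1.52% in the higher direction. The 3 were Egr3, Il4 and the ryanodine receptor gene Ryr2, the last also named after its values were seen. Ryr2 was 0.621, 0 and 6.31 CPM across WT replicates 1 to 3 and 0.603, 0.240 and 0.712 CPM across cKO replicates 1 to 3. WT replicate 3 was thus far above the others.

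The voltage-gated subunits differed from the 10 genes above all in level. Of 37 subunits, 23 were listed, with a median of 0.502 CPM over the mean of the 6 libraries, and 15 of the 23 were under 1 CPM. A count of 3 was worth 0.133 to 0.156 CPM. The median of the 10 store-operated entry and NFAT genes was 88.9 CPM. Per kb, the summed level of the 10 genes was 230, 198 and 196 across WT replicates 1 to 3 and 217 to 223 in the cKO libraries. The same sum over the 23 subunits was 8.40, 14.4 and 9.59 and, in the cKO libraries, 8.42 to 9.43. The subunit with the highest WT level per kb, Cacnb1, an auxiliary beta subunit, was at 2.24 CPM per kb in the WT and 3.92 in the cKO group. Both values were below the 5.78 of Ppp3ca, the lowest of the 10.

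**Figure D5:**
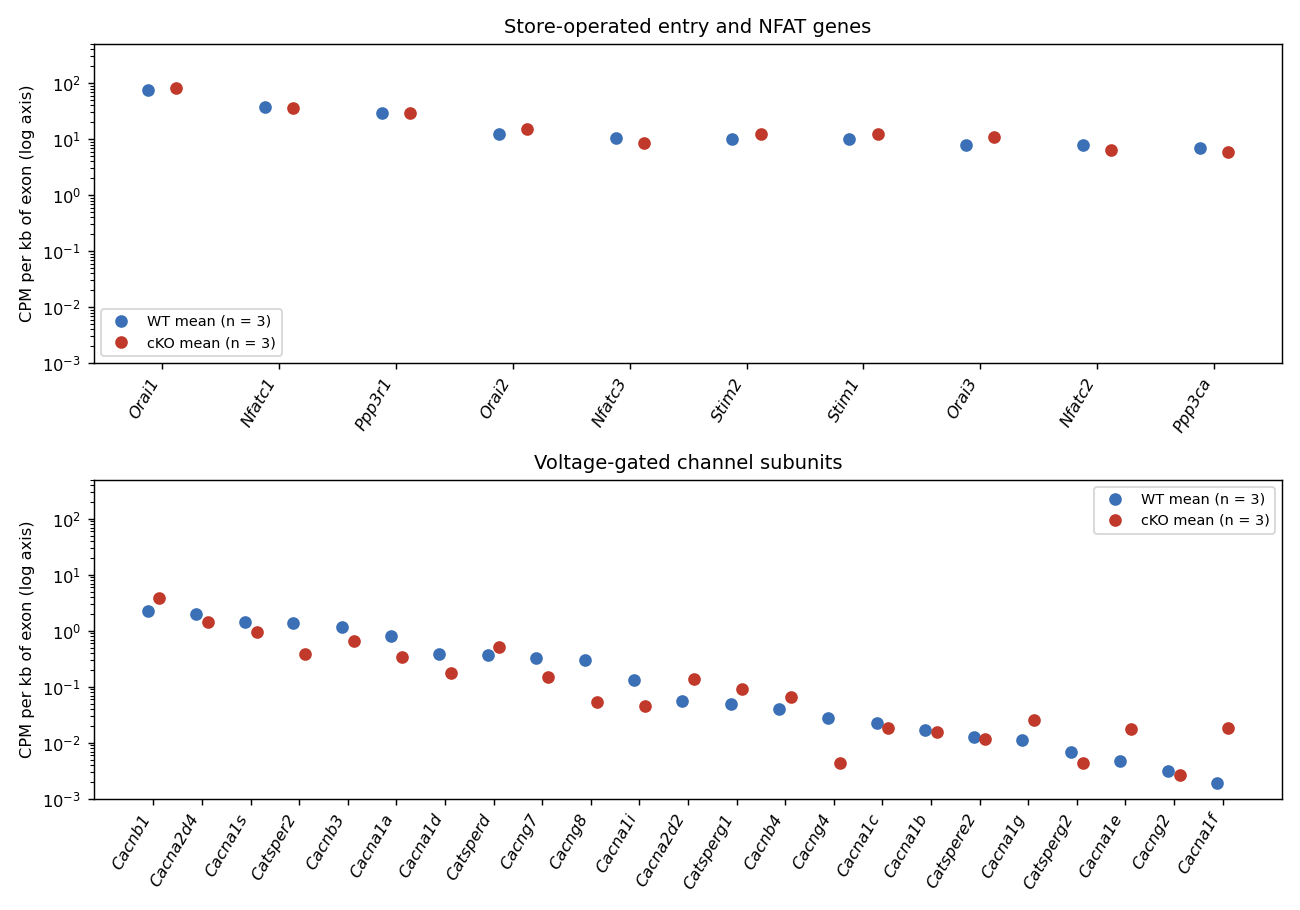
Mean level in CPM per kb of exon (y axes, logarithmic and the same in both panels) of the 10 store-operated entry and NFAT genes (top) and the 23 listed voltage-gated subunits (bottom) in the WT (blue) and cKO (red) groups, ordered by the WT mean. The lowest gene of the top panel, Ppp3ca, is at 6.87 in the WT and 5.78 in the cKO group, above the highest subunit, Cacnb1, at 2.24 and 3.92.

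Precision differed with level. The 95% interval of the log2 fold change lay within -1 to 1 for 0 of the 23 subunits, against 9 of the 10 genes, and its median width was 5.81 on the log2 scale, against 0.844. Estimates were higher in the cKO group for 8 subunits and lower for 15, with 0 called and 0 at an unadjusted p under 0.05 from edgeR. Their median log2 fold change was -0.28, and -0.23 without WT replicate 2. Groups were apart in 3 subunits in the higher direction (Cacnb1, Cacna1f and Cacna2d2) and in 2 in the lower (Cacna1d and Catsper2), where 5.01% and 3.23% of all genes tested were. All of these but Cacnb1 were named after their values were seen. WT replicate 2 was the highest or lowest library for 69.6% of the 23 subunits and for 7 of the 10 genes. The summed level of the subunits was 49.7, 96.9 and 60.2 CPM across WT replicates 1 to 3 and 50.6 to 57.4 CPM in the cKO libraries, so that WT replicate 2 was at 1.76 times the mean of the other WT libraries. For the 10 genes the same ratio of sums was 1.08, with higher and lower members offsetting each other. Among the more abundant subunits, Cacnb3, another beta subunit, went from a log2 fold change of -0.81 to -0.23 when WT replicate 2 was left out, and Cacna1a, the pore subunit of P/Q-type channels, from -1.27 to -0.45. With DESeq2, Cacna1a was at -1.26 over all 6 libraries (unadjusted p = 0.0390, adjusted p = 0.999). DESeq2 without WT replicate 2 put it at -0.45 (unadjusted p = 0.201). Cacna2d4, an alpha2delta subunit, went from -0.46 to 0.24, Cacnb1 from 0.81 to 0.35, and Cacna1s, the pore subunit of skeletal muscle, from -0.58 to -0.53. The difference in fold change between the 2 families was not tested.

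The genes whose log2(CPM + 0.5) ran most like a given gene over the 6 libraries were sought among the 8447 genes with a mean of at least 10 CPM, and with 6 points and so many genes, high values are found for any pattern. For Stim1 they were Sgpp1, Snap23 and Rassf5, each at r = 0.97, and Sgpp1, at 40.0, 42.7 and 40.9 CPM in the WT and 54.6, 50.3 and 60.2 CPM in the cKO libraries, also had its groups apart. For Orai1 they were Cables1, Batf and Pdia4, each at r = 0.99. Batf, a transcription factor of tumor Tregs, was 177, 76.3 and 104 CPM across WT replicates 1 to 3 and 126, 138 and 123 CPM across cKO replicates 1 to 3, with the same WT replicates at its ends as Orai1. For Nfatc1 they were Aptx and Tgfb1 at r = 0.97 and Cul2 at r = 0.96. For Ppp3ca they were Zfp655, Ly6g5b and Dek, each at r of at least 0.997 and each highest in WT replicate 2. Without WT replicate 2, r lay between 0.947 and 0.993 for these 12 genes.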

How the data were processed

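RNA-Seq libraries of tumor-infiltrating Tregs (3 WT and 3 cKO) were grouped by their sample titles. The authors aligned clean paired-end reads to GRCm38 and deposited expected counts per gene symbol, without normalization, and the submitters' processing notes name Bowtie2 (2.3.4.3) and RSEM (1.3.1). The annotation and the use of strand in counting are not given in the sources used here. As 21.6% of values were not whole, counts were rounded. Replicates of a group differed by more than sampling noise (chi-square per gene of 22.6 to 279) and each counted as 1 sample.

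The 15315 genes with at least 1 count were TMM-scaled and compared with edgeR's quasi-likelihood test (edgeR 4.0.16, R 4.3.3) with Benjamini-Hochberg adjustment over all of them. Alternatives were DESeq2 (1.42.0) with and without WT replicate 2, median-of-ratios scaling, library size only, filterByExpr (minimum count 10), voomWithQualityWeights (limma 3.58.1), robust dispersions, a block for the replicate number and each library left out. Log2 ratios of paralogs and of the calcineurin subunits (counts + 0.5, or + 5) were compared by exact two-sided permutation tests. The method was also run on simulated counts. Their spread was taken without WT replicate 2, so they do not hold that library's departure and do not test the main fit with it. The text names the 10 genes, the 2 most abundant genes of each of 8 pathway lists, the 5 most abundant voltage-gated subunits, genes of these lists with an unadjusted p under 0.05, and the 3 genes most like each of Stim1, Orai1, Nfatc1 and Ppp3ca. A single gene that this rule names is not reported here. The genes and lists were chosen with earlier results of these data known. Lengths and positions came from GENCODE vM21 (GRCm38), where 14783 symbols were found. A limit of 3 counts covers counting error only.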

Additional observations from a re-analysis of the deposited data

How the results depend on the processing

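Calls among the 10 genes numbered 0 in the main test and in each alternative run. Over all genes, 0 were called by edgeR, 2 by DESeq2 and 3 by DESeq2 without WT replicate 2, and leaving out 1 library in turn gave 0 to 1, the 1 being without WT replicate 2. The median log2 fold change of the voltage-gated subunits, -0.28 in the main test, was -0.59 with filterByExpr and -0.56 to 0.69 over the fits that left out 1 library, the highest being without WT replicate 3. Leaving out 1 library turned the sign of 3 ratios, which ranged from -0.021 to 0.35 for Nfatc1 to Nfatc3 (lowest without WT replicate 2), from -0.34 to 0.16 for Orai1 to Orai2 (highest without WT replicate 1) and from -0.055 to 0.17 for Stim1 to Stim2 (lowest without cKO replicate 3). In the same fits the log2 fold change ranged from -0.023 to 0.37 for Orai1, -0.12 to 0.0031 for Nfatc1, -0.40 to 0.043 for Ppp3ca, -0.076 to 0.10 for Ppp3r1 and -0.83 to 0.24 for Cacna2d4, and Xrcc6 stayed between -3.33 and -2.38. DESeq2 without WT replicate 2 gave -0.025 for Orai1, 0.040 for Ppp3ca, 0.10 for Ppp3r1 and 0.23 for Cacna2d4. With voomWithQualityWeights, Ppp3r1 was at 0.12 and Cacna2d4 at 0.17. Ppp3r1 was at 0.00043 with DESeq2 and 0.00049 with median-of-ratios scaling. The cause of these turns was not tested beyond the library left out.

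The replicate numbers are shared between the groups, but the labels tie them to no litter, batch or day. The deviations of same-numbered libraries from their group means correlated at -0.012, -0.21 and 0.20 over 8447 genes, so the numbers were not taken as pairs. With the replicate block, 0 genes were called, the median log2 fold change of the 10 genes was 0.08, and the unadjusted p of Stim1 was 0.125 and of Orai2 0.133 from edgeR.

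The 10 genes had 126 to 6336 counts per library, while 15 of the 23 listed subunits were under 1 CPM.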
